A study of Mus musculus with 8 samples.

Results

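Small leucine-rich proteoglycans are secreted matrix proteins, and 10 of their genes were followed here in mouse embryonic fibroblasts (MEFs), namely Aspn, Ogn, Omd, Dcn, Lum, Fmod, Bgn, Prelp, Podn and Kera. The members were found by matching the Ensembl IDs of the raw count table to these symbols, and all 10 had a row among 19493 endogenous genes. The family was put forward with results of the same libraries known, in which the Dp1Tyb and WT values of Aspn differed, so measured values chose the members and their values in that comparison are a description with no test. In all, 9 of the 10 passed the filter on low counts that kept 16470 genes, and Kera did not.

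The experiment compared MEFs carrying the Dp1Tyb duplication of chromosome 16 with WT MEFs, to ask whether Dp1Tyb cells hold more mRNA in all, by scaling libraries to added RNA standards and to the genes themselves. The 4 Dp1Tyb libraries came from embryos of genotype Dp(16Lipi-Zbtb21)1TybEmcf, a mouse model of Down syndrome with an extra copy of the genes from Lipi to Zbtb21, and the 4 WT libraries came from embryos without it. All 8 were labelled with the strain background C57BL/6J.129P2, from mice that the study backcrossed to C57BL/6JNimr, were taken at E14.5 and received ERCC spike-ins, which are synthetic transcripts, before RNA extraction. MEFs are a mixed connective tissue culture grown from minced embryos without head and viscera, passaged and lifted with trypsin, and by the study's methods its MEFs came from littermate embryos of both genotypes. Neither the labels nor the methods tie each library to its own embryo, so the spread between libraries may in part be technical. No member lies on chromosome 16.

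Libraries held 17698900 to 26471758 counts, of which spike-ins took 0.882 to 1.65%. Among 112 tested genes of the duplicated stretch, 107 were higher in Dp1Tyb with spike-in scaling, with a median fold of 1.56, and 101 with relative scaling, with a median fold of 1.46. The fibroblast markers were abundant in every library, and none of the 9 was at 0. Fewer cells of a type and less RNA per cell cannot be told apart in such bulk samples. Of the lists of other cell types, the leukocyte markers stood apart by genotype with relative scaling. Their summed normalised read count was 1945 to 2426 in WT and 1076 to 1706 in Dp1Tyb, with 5 of 5 detected. Of them 2 of 5, Ptprc and Tyrobp, were lower in every Dp1Tyb library than in every WT library. The same held for 1.52% of all tested genes with relative and 0.140% with spike-in scaling. With spike-in scaling Ptprc did not overlap either, at 224 to 340 in WT and 119 to 205 in Dp1Tyb, but Tyrobp did, at 162 to 347 and 124 to 229. DESeq2 called Ptprc with relative scaling (adjusted p = 1.99e-07), and the quasi-likelihood test of edgeR did not (adjusted p = 0.0903). Neither called Ptprc with spike-in scaling. The smooth muscle or myofibroblast markers (Acta2, Tagln, Cnn1 and Myh11, with 4 of 4 detected) differed between cultures of the same genotype, from 11844 to 47235 in WT and from 9883 to 57645 in Dp1Tyb. Matn1, Bglap, Myod1, Myf5, Pax7 and Krt5 were not analysed here.

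Small leucine-rich proteoglycans have a protein core of leucine-rich repeats, to which chains of chondroitin, dermatan or keratan sulphate can be attached. They bind collagen fibrils and set their diameter and spacing, and several bind TGF-beta and other growth factors in the matrix. Fibroblasts of skin, tendon, bone and cornea make different sets of them. The class I members followed here are Bgn, Dcn and Aspn, the class II members are Lum, Fmod, Prelp, Omd and Kera, Ogn belongs to class III, and Podn is a more distant member.

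Aspn, Omd and Ogn form a cluster on the plus strand of chromosome 13 (GRCm38), with Aspn at chr13:49544443-49567565, Omd at chr13:49582462-49592822 and Ogn at chr13:49608046-49624501, with gaps of 14896 and 15223 bases between them. Dcn (chr10:97479609-97518143), Lum (chr10:97565128-97572703) and Kera (chr10:97606879-97613692) follow each other in the same way on chromosome 10. Prelp (chr1:133910304-133921414, minus strand) and Fmod (chr1:134037254-134048277, plus strand) lie 115839 bases apart on chromosome 1. Bgn is on the X chromosome (chrX:73483602-73495933) and Podn on chromosome 4 (chr4:108014791-108096445, minus strand). Cenpp runs on the opposite strand across Aspn, Omd and Ogn, and its exons share 7 bases with those of Aspn. Exons of Gm15851 share 350 bases with Prelp on the opposite strand, and the strand option of the counting is not given in the sources used here.

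RefSeq promoters, the 250 bases before and 50 after an annotated start in GRCm38.p6, matched 8 members, with a pair of starts for Podn. Dcn and Lum had no entry. The promoters of the chromosome 13 neighbours are shown because these genes sit side by side and yet differ in level and in spread between cultures. They are given from 5′ to 3′ on the plus strand, for Aspn at chr13:49544193-49544492, for Omd at chr13:49582212-49582511 and for Ogn at chr13:49607765-49608064. Capitals mark matches to the letters of the TATA box, TATAAA, searched on both strands, so the reverse complement TTTATA is capitalised too. Whether these letters act as TATA boxes of the annotated starts was not tested.
Aspn: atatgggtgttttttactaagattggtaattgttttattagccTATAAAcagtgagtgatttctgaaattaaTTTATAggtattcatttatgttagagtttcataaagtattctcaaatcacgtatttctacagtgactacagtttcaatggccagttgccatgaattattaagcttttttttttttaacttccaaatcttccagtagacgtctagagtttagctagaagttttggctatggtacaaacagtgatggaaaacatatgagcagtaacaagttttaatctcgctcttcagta
Omd: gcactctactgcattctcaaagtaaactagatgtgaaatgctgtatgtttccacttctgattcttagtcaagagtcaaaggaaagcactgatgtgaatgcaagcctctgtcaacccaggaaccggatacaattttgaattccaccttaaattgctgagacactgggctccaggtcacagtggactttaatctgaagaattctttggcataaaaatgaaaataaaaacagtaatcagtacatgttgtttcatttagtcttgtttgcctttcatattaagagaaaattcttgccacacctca
Ogn: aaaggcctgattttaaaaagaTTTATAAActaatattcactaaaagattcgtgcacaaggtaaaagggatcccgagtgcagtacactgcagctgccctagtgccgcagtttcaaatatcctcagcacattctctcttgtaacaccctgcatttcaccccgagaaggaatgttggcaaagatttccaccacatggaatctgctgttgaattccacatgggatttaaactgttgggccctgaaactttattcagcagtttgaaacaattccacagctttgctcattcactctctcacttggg

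The TATA box letters were in 2 of the 9 member promoters, those of Aspn and Ogn, and in 13.6% of 32851 promoters of the same length. In Aspn they began at -207 on the plus strand and at -178 on the minus strand, and in Ogn a plus-strand match at -227 overlapped a minus-strand match at -229. The Omd promoter held none of the 6 motifs searched. Other motifs, again on both strands, were CCAAT in 4 of 9 member promoters (37.4% of all), GGGCGG in 2 of 9 (35.7%), TGANTCA in 0 of 9 (7.81%), CAGAC in 3 of 9 (49.6%) and CANNTG in 7 of 9 (72.3%). Fmod and Prelp, which are neighbours on chromosome 1, each held CCAAT and CAGAC. GC content was 31.0% in Aspn, 37.7% in Omd, 41.0% in Kera and 42.3% in Ogn, below the lower quartile of 45.7% of all promoters. It was 63.7% in Bgn and 77.0% and 63.0% at the starts of Podn, above the upper quartile of 61.7%, and between the quartiles in Fmod and Prelp.

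Levels were compared between members as RPKM, the reads per kilobase of merged exons scaled to a common library size with relative scaling. Bgn, which codes for biglycan, was the most abundant at 462 ± 30.1 RPKM (SD, n = 8 libraries), rank 50 of 19318 genes with a known length. Aspn (asporin) followed with 102 ± 24.3, Dcn (decorin) with 67.9 ± 11.0, Lum (lumican) with 57.4 ± 25.2 and Ogn (osteoglycin) with 47.1 ± 21.5. A second group lay about an order of magnitude lower: Fmod (fibromodulin) at 5.59 ± 3.47, Prelp at 4.93 ± 2.73, Podn (podocan) at 3.72 ± 1.71 and Omd (osteomodulin) at 2.25 ± 0.516 RPKM. Kera (keratocan), a proteoglycan of the cornea, was at 0.148 ± 0.111 RPKM.

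Bgn was above Aspn, Ogn above Fmod and Omd above Kera in 8 of 8 libraries. Between these steps the order was less firm: Aspn was above Dcn in 6 of 8 libraries, Dcn above Lum in 6, Lum above Ogn in 7, Fmod above Prelp in 4, Prelp above Podn in 6 and Podn above Omd in 6. Fmod and Prelp therefore could not be ordered beyond their spread. The place of Dcn depended on the length used, because its merged exons (5838 bases) are longer than its longest coding transcript (1758 bases). Per length of that transcript Dcn reached 225 RPKM, above Aspn in 8 of 8 libraries, and Bgn 1166 RPKM. Podn, at 5.01 RPKM on that length, then stood above Prelp, at 4.93, in 5 of 8 libraries. The members together took a share of 0.373% ± 0.0414 of WT endogenous counts and of 0.382% ± 0.0143 of those of Dp1Tyb (SD over 4 libraries each), a difference of 0.00962 percentage points that was smaller than the SD in either genotype. Its direction was not stable, at -0.00789 without WT replicate 4, -0.00237 without Bgn and 0.0248 without WT replicate 1, the last of which exceeded the Dp1Tyb SD. Bgn alone made up 68.7 to 78.9% of these counts.

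**Figure D1:**
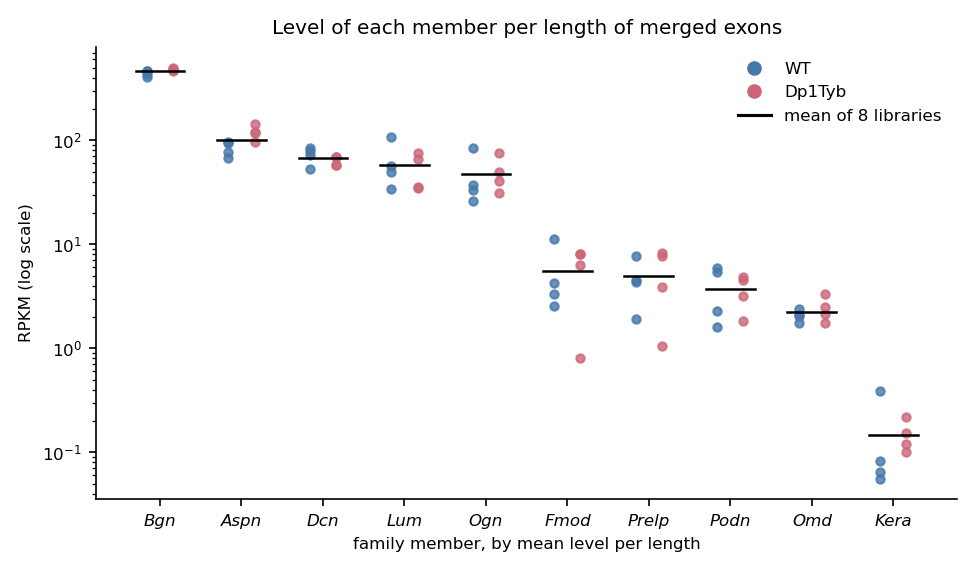
Level of each member in RPKM per length of merged exons, on a log axis, with WT libraries in blue, Dp1Tyb libraries in red and the mean of 8 libraries as a line. Bgn lies at 406 to 502 RPKM in all libraries, Aspn, Dcn, Lum and Ogn between 26.1 and 143, the next 4 members between 0.807 and 11.3, and Kera at or under 0.392.

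Of the 9 members that passed the filter, Aspn was the one whose Dp1Tyb libraries all lay above its WT libraries. Asporin is a class I member with a run of aspartate residues and binds collagen and TGF-beta. With relative scaling (TMM factors over the endogenous genes) the WT replicates 1 to 4 had normalised read counts of 3826, 4729, 4640 and 3337, and the Dp1Tyb replicates 1 to 4 had 5980, 7020, 5763 and 4771. The genotypes did not overlap, but the margin was narrow, since Dp1Tyb replicate 4 lay just above WT replicate 2. With spike-in scaling (size factors from the spike-ins) the WT cultures had 4539, 4173, 3309 and 3902 and the Dp1Tyb cultures 7202, 4827, 6065 and 6270. Again all 4 Dp1Tyb libraries were higher, now with replicate 2 as the lowest of them. The leukocyte markers, which with relative scaling also stood apart by genotype but were lower in Dp1Tyb, were not tested for a part in this.

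The mean of Aspn went from 4133 ± 668 for WT to 5883 ± 922 for Dp1Tyb (SD over 4 libraries each) with relative scaling, a fold of 1.42 (log2 fold change 0.51, SE 0.15). With spike-in scaling the means were 3981 ± 518 and 6091 ± 977, a fold of 1.53 (log2 fold change 0.61, SE 0.32). The SE was larger there, where the common biological coefficient of variation of the fit was 0.351, against 0.232 for relative scaling. Over all genes that were tested the median was 0.11 after spike-in scaling and 0.01 after relative scaling, and relative to these medians Aspn differed by 0.50 in both. Leaving out each library in turn kept the Aspn difference between 0.53 and 0.72 with spike-in scaling and between 0.41 and 0.60 with relative scaling.

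Since the family was chosen on this contrast, the following counts say nothing further about it. An adjusted p under 0.05 by the quasi-likelihood test of edgeR was reached by 0 of the 9 members with spike-in scaling, where 0.0121% of all genes were called, and by 0 of 9 with relative scaling, where 0.0182% were. DESeq2 called 0 of 9 in both, beside 0.0121% of all genes with spike-in and 0.316% with relative scaling. At an unadjusted p under 0.05 edgeR counted 0 of 9 with spike-in scaling (1.17% of all genes) and 1 of 9, Aspn, with relative scaling (4.27%). Every Dp1Tyb library exceeded every WT library for 1 of 9, Aspn, beside 0.285% of all genes with spike-in and 1.64% with relative scaling. Every Dp1Tyb library was below every WT library for 0 of 9, beside 0.140% and 1.52%.

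**Figure D2:**
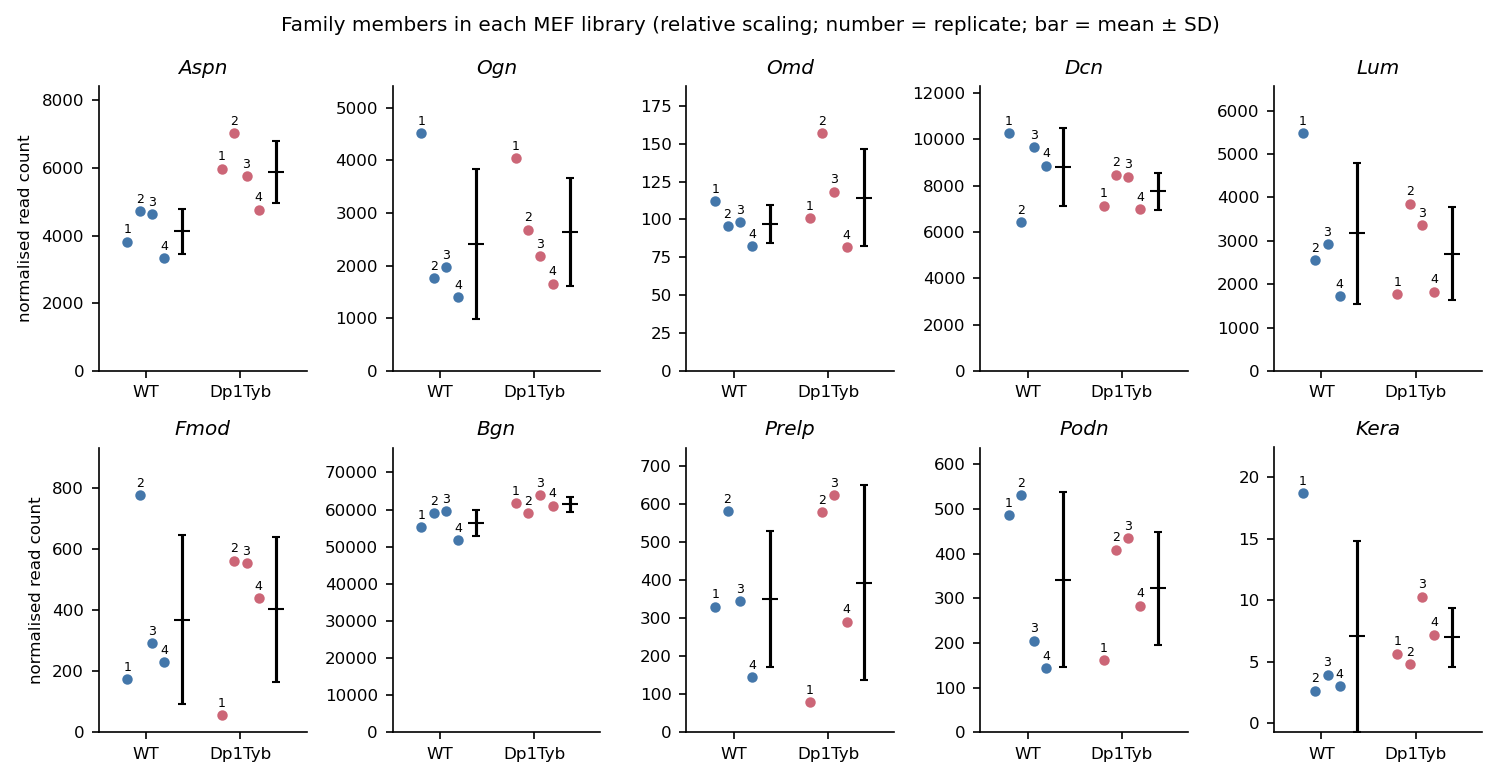
Normalised read count (relative scaling) of each member in each library, with WT in blue, Dp1Tyb in red, the replicate number above each point and the mean ± SD of 4 libraries as a black bar. Aspn is the one member whose genotypes do not overlap, Ogn is highest in replicate 1 of both genotypes, and Fmod and Prelp are lowest in Dp1Tyb replicate 1.

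The other class I members are decorin and biglycan, the main dermatan and chondroitin sulphate carriers of the family in fibroblasts. Dcn had normalised read counts (relative scaling, replicates 1 to 4) of 10255, 6432, 9661 and 8859 in WT and of 7140, 8480, 8389 and 6997 in Dp1Tyb. The lowest and the highest library were both WT, so the Dp1Tyb values lay inside the WT range. Its log2 fold change was -0.18 (SE 0.15) with relative and -0.11 (SE 0.32) with spike-in scaling, and the latter became 0.09 without WT replicate 1 and 0.02 without Dp1Tyb replicate 2. With relative scaling it was -0.10 without WT replicate 1 and -0.30 without WT replicate 2.

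Bgn had 55328, 58986, 59510 and 51702 normalised read counts in WT and 61774, 59062, 63927 and 61013 in Dp1Tyb. Of the Dp1Tyb libraries 3 of 4 exceeded every WT library, and Dp1Tyb replicate 2 fell within the WT range. For Bgn the log2 fold change was 0.12 (SE 0.11) with relative and 0.25 (SE 0.32) with spike-in scaling. The latter was 0.43 without Dp1Tyb replicate 2 and 0.14 without either WT replicate 3 or Dp1Tyb replicate 4. With relative scaling the SD of log2 Bgn within a genotype was 0.07, and 1.75% of tested genes had a smaller one. With spike-in scaling it was 0.37, and 20.3% had a smaller one. Because Bgn is X-linked, Xist, the transcript of the inactive X of female cells, and the Y-linked Ddx3y were looked at beside it. Xist had 36188 counts in WT replicate 2 and 38867 in Dp1Tyb replicate 1 and at most 60 elsewhere, while Ddx3y had 7 and 4 counts in those libraries and at least 2547 in the other 6. Each genotype thus held 1 library with high Xist, and Bgn in these libraries lay inside the range of the other 6.

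Among the class II members, lumican shapes collagen fibrils in the cornea and skin, and osteomodulin is a keratan sulphate proteoglycan of bone. Lum had normalised read counts of 5471, 2557, 2917 and 1726 in WT and of 1773, 3854, 3364 and 1828 in Dp1Tyb. The single highest culture was WT replicate 1, and the genotypes overlapped. Lum had a fold change of -0.23 (SE 0.36) on the log2 scale with relative and -0.26 (SE 0.32) with spike-in scaling, and it turned to 0.18 and 0.34 without WT replicate 1.

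Omd had 112, 95.7, 98.0 and 82.1 normalised read counts in WT and 101, 157, 118 and 81.7 in Dp1Tyb. These rest on 68 to 130 raw counts per library, the fewest of the members that passed. Dp1Tyb replicates 2 and 3 were above all WT libraries and replicate 4 was below them all. For Omd the log2 fold change was 0.24 (SE 0.22) with relative and 0.27 (SE 0.41) with spike-in scaling. The former was 0.05 without Dp1Tyb replicate 2 and 0.37 without Dp1Tyb replicate 4, and the latter was 0.14 without WT replicate 3 and 0.47 without WT replicate 1.

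Fibromodulin, a collagen-binding proteoglycan of tendon and cartilage, and Prelp, which also binds heparan sulphate and is found near basement membranes, varied most between cultures. Fmod had normalised read counts of 176, 778, 293 and 230 in WT and of 55.7, 563, 554 and 440 in Dp1Tyb. Within Dp1Tyb the highest value was 10.1 times the lowest, and within WT 4.43 times. Dp1Tyb replicate 1, with 69 raw counts, stood apart from the other 3 Dp1Tyb cultures, which lay between WT replicates 2 and 3.

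Prelp had normalised read counts of 330, 582, 344 and 145 in the WT cultures and of 80.0, 580, 624 and 291 in the Dp1Tyb cultures. Its lowest library was again Dp1Tyb replicate 1, 7.80 times under the highest of that genotype. The log2 fold changes were 0.12 (SE 0.64) for Fmod and 0.16 (SE 0.57) for Prelp with relative scaling, and 0.23 (SE 0.34) and 0.21 (SE 0.34) with spike-in scaling. For both genes the SD within a genotype exceeded these differences. With relative scaling Fmod turned to -0.11, -0.05, -0.09 and -0.07 without WT replicate 1, WT replicate 4, Dp1Tyb replicate 2 or Dp1Tyb replicate 3, and Prelp to -0.09, -0.09 and -0.15 without WT replicate 4, Dp1Tyb replicate 2 or Dp1Tyb replicate 3. Without WT replicate 2, the culture with the most Fmod, the Fmod value was 0.80 and that of Prelp 0.54. With spike-in scaling Fmod ran from 0.02 without Dp1Tyb replicate 3 or 4 to 0.60 without Dp1Tyb replicate 1 and 0.82 without WT replicate 2, and Prelp from -0.16 without Dp1Tyb replicate 3 to 0.55 without Dp1Tyb replicate 1.

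Kera had 20, 3, 4 and 3 raw counts in the WT cultures and 7, 4, 10 and 6 in the Dp1Tyb cultures. At this depth the genotypes overlapped and no fold change was fitted. The single culture with 20 counts was WT replicate 1, which also had the most Lum, Dcn and Ogn.

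Osteoglycin, of class III, is found around collagen fibrils of bone, heart and cornea. Ogn had normalised read counts of 4509, 1767, 1974 and 1399 in WT and of 4040, 2682, 2178 and 1658 in Dp1Tyb. Replicate 1 was the highest in both genotypes, and the genotypes overlapped. Ogn differed by a log2 fold change of 0.13 (SE 0.38) with relative and 0.17 (SE 0.32) with spike-in scaling. Without WT replicate 1 it was 0.63 and 0.87, and without Dp1Tyb replicate 1 it was -0.15 and -0.23. It fell to -0.05 with relative scaling without WT replicate 4, and to -0.0047 and -0.03 with spike-in scaling without WT replicates 2 and 3.

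Podocan binds collagen and is made by smooth muscle cells among others. Podn had normalised read counts of 486, 531, 205 and 143 in WT and of 162, 409, 434 and 284 in Dp1Tyb. Both genotypes held high and low cultures, and WT replicates 1 and 2 were the highest. The log2 fold change was -0.09 (SE 0.44) with relative and -0.06 (SE 0.34) with spike-in scaling. With relative scaling it turned to 0.13 without WT replicate 1, to 0.22 without WT replicate 2 and to 0.14 without Dp1Tyb replicate 1. With spike-in scaling it turned to 0.33, 0.13 and 0.13 without these cultures and to 0.01 without Dp1Tyb replicate 2. Without WT replicates 3 and 4 it was -0.26 and -0.34 with relative and -0.32 and -0.28 with spike-in scaling. Without Dp1Tyb replicate 3 it was -0.26 with relative and -0.25 with spike-in scaling.

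Across the 9 members, 6 fold changes were positive and 3 negative under both scalings, beside 11598 positive of 16470 tested genes after spike-in and 8430 after relative scaling. Their median was 0.12 with relative scaling, beside 0.01 over all tested genes, and 0.21 with spike-in scaling, beside 0.11. Relative to the median of all genes with spike-in scaling, the members other than Aspn ran from -0.37 for Lum to 0.16 for Omd.

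**Figure D3:**
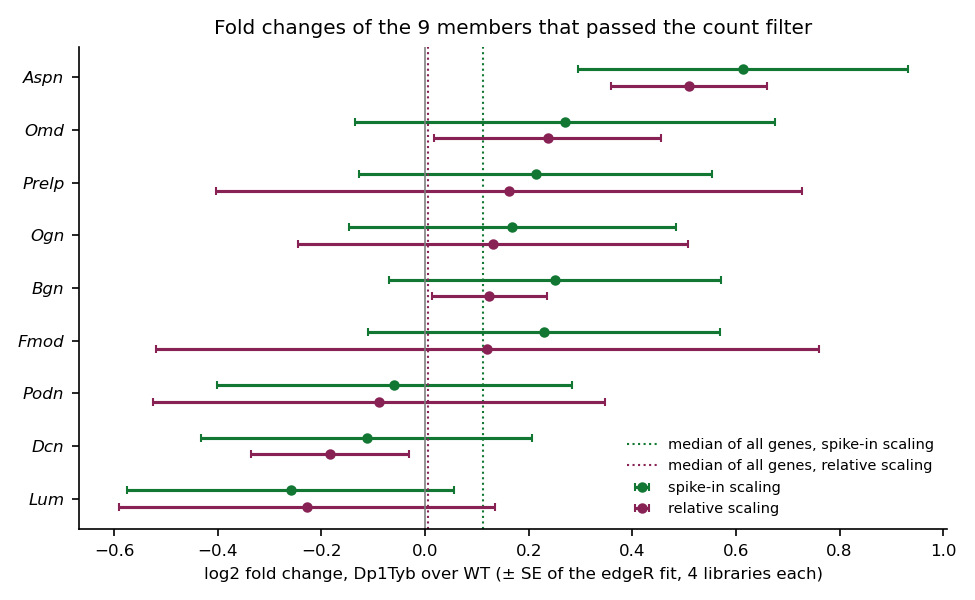
Log2 fold change of the 9 members that passed the filter, Dp1Tyb over WT, with the SE of the edgeR fit, for spike-in scaling (green) and relative scaling (purple), and dotted lines at the median of all tested genes. Aspn has the highest value in both scalings, 0.61 and 0.51, and Lum the lowest, -0.26 and -0.23.

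The members differed in their spread between cultures of the same genotype. With relative scaling the pooled SD of log2 values was 0.07 for Bgn, 0.23 for Aspn, 0.24 for Dcn and 0.31 for Omd, against a median of 0.28 over all tested genes. It was 0.64 for Lum, 0.65 for Ogn, 0.80 for Podn, 1.13 for Prelp and 1.32 for Fmod. Of all tested genes, 99.3% had a smaller SD than Fmod and 98.7% a smaller one than Prelp. The median over the 9 members was 0.64, above the upper quartile of all tested genes, 0.46. With spike-in scaling it was 0.61, just below the upper quartile of 0.63.

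With spike-in scaling the SD of Aspn was 0.22, and 0.0850% of tested genes had a smaller one, beside a median of 0.48 over all tested genes on this scale. With relative scaling 40.6% had a smaller SD than Aspn. Its spread within a genotype bears on the difference that put the family forward, so both ranks are a description. The amount of endogenous RNA per spike-in differed between cultures from 0.688 to 1.31 times the geometric mean of all 8. Within a genotype the highest library of Aspn was 1.37 times the lowest in WT and 1.49 times in Dp1Tyb.

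The 4 cultures with the least Fmod also had the lowest summed smooth muscle or myofibroblast markers, a sum made up mostly of Acta2 and Tagln. For Myh11, which codes for smooth muscle myosin, the order differed, in that WT replicate 1, among these 4, had 207 normalised read counts and Dp1Tyb replicate 4, which is not, had 163. Acta2, the smooth muscle actin that myofibroblasts also express, had normalised read counts of 8081, 32325, 8091 and 11104 in the WT cultures and of 6890, 40170, 26687 and 20219 in the Dp1Tyb cultures. The summed markers of this list were 9883 in Dp1Tyb replicate 1, the lowest culture of Fmod and Prelp, and 37918 to 57645 in Dp1Tyb replicates 2 and 3 and WT replicate 2, the 3 highest of Fmod. Podn departed from this order in WT replicate 1, where it was high and the markers summed to 11844. The part of these markers in the values of the members was not tested.

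**Figure D4:**
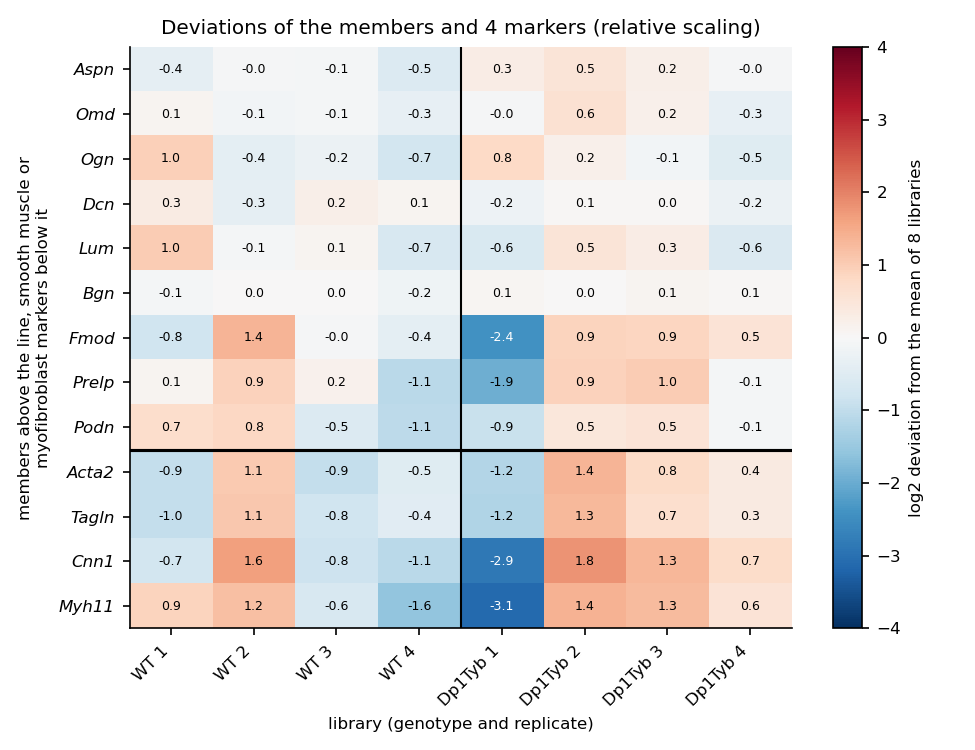
Log2 deviation of each library from the mean of 8 libraries (colour and number, relative scaling) for the 9 members above the line and for 4 smooth muscle or myofibroblast markers below it. Fmod and Prelp are lowest in Dp1Tyb replicate 1, where the markers are lowest too, while Bgn stays within 0.19 of its mean in every library.

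To ask whether neighbouring members vary together, deviations of log2 values from the genotype mean were correlated over the 8 libraries, which keeps the measure apart from the genotype contrast. Both genes passed the filter in 5 pairs, and p-values are from two-sided exact permutations within genotype, adjusted over the 5 pairs. The smallest p these can give is 0.00174 with all 8 libraries, and it is larger where 2 are left out. Fmod and Prelp had r = 0.89 and rho = 0.79 (exact p = 0.0243, adjusted 0.122, and for rho 0.0174, adjusted 0.0868), so the relation did not pass the threshold after adjustment. It rested on 2 cultures, since r was 0.31 (exact p = 0.611, adjusted 0.903) without WT replicate 2 and Dp1Tyb replicate 1. These are also the 2 libraries with high Xist and few Ddx3y counts, and the part of that difference in the relation was not tested.

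On chromosome 13, Aspn and Omd had r = 0.70 and rho = 0.57 (exact p = 0.0712, adjusted 0.178, and for rho 0.188, adjusted 0.234). Ogn and Omd had r = 0.48 and rho = 0.67 (exact p = 0.220, adjusted 0.276, and for rho 0.0833, adjusted 0.150). Aspn and Ogn, the ends of the cluster, had r = 0.25 and rho = 0.40 (exact p = 0.582, adjusted 0.582, and for rho 0.373, adjusted 0.373). None of these passed the threshold. Without the 2 libraries farthest from the median of the first gene, r was 0.25 for Aspn and Omd (exact p = 0.722, adjusted 0.903), 0.94 for Ogn and Omd (exact p = 0.0278, adjusted 0.139) and -0.12 for Aspn and Ogn (exact p = 0.944, adjusted 0.944). With spike-in scaling, where all genes of a culture share its RNA amount, r was 0.65, 0.82 and 0.75 for these pairs. With relative scaling, r of Aspn and Ogn was 0.64 without WT replicate 1, -0.035 without WT replicate 4 and -0.0057 without Dp1Tyb replicate 4. For Ogn and Omd it was 0.70 without Dp1Tyb replicate 1 and 0.28 without Dp1Tyb replicate 4. The p of 0.0278 for Ogn and Omd was the smallest that the libraries left in could give. That pair alone could therefore not have passed after adjustment.

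On chromosome 10, Dcn and Lum had r = 0.59 and rho = 0.69 (exact p = 0.193, adjusted 0.276, and for rho 0.0903, adjusted 0.150), and r was 0.98 (exact p = 0.0833, adjusted 0.208) without WT replicates 1 and 2. The pairs with Kera were not computed, since Kera did not pass the filter. As a description over all 36 pairs of members, r was highest for Fmod and Prelp (0.89), Prelp and Podn (0.84), Omd and Lum (0.84) and Lum and Podn (0.73), and lowest for Ogn and Fmod (-0.60). These pairs share the same 8 libraries and their depth.

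The genes around the chromosome 13 cluster were listed to set Aspn beside its surroundings. Within 250 kb on either side, 8 other genes had counts and all passed the filter. Of these 8, edgeR called 0 with either scaling, and 0 had an unadjusted p under 0.05. Of all tested genes it called 0.0121% with spike-in and 0.0182% with relative scaling, and 1.17% and 4.27% had an unadjusted p under 0.05. With shares this low, 0 of 8 does not set these genes apart from the rest. Ecm2, which ends before Aspn and codes for a leucine-rich repeat protein of the matrix, differed by a log2 fold change of -0.14 (SE 0.21) with relative scaling, on 44 to 88 raw counts. Cenpp, a centromere protein gene that spans the cluster on the other strand, had 0.01 (SE 0.35), and Nol8, on the other side of the cluster, had 0.16 (SE 0.13). Fgd3 and Iars had 0.38 (SE 0.23) and 0.22 (SE 0.18), Bicd2 and Ippk had 0.15 each (SE 0.12 and 0.14), and the small nucleolar RNA Gm25394 had -0.07 (SE 0.49). Aspn at 0.51 was thus the highest of the 11 genes, and a difference between Aspn and its neighbours was not tested. Since this contrast of Aspn put the family forward, its place among them is a description only.

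**Figure D5:**
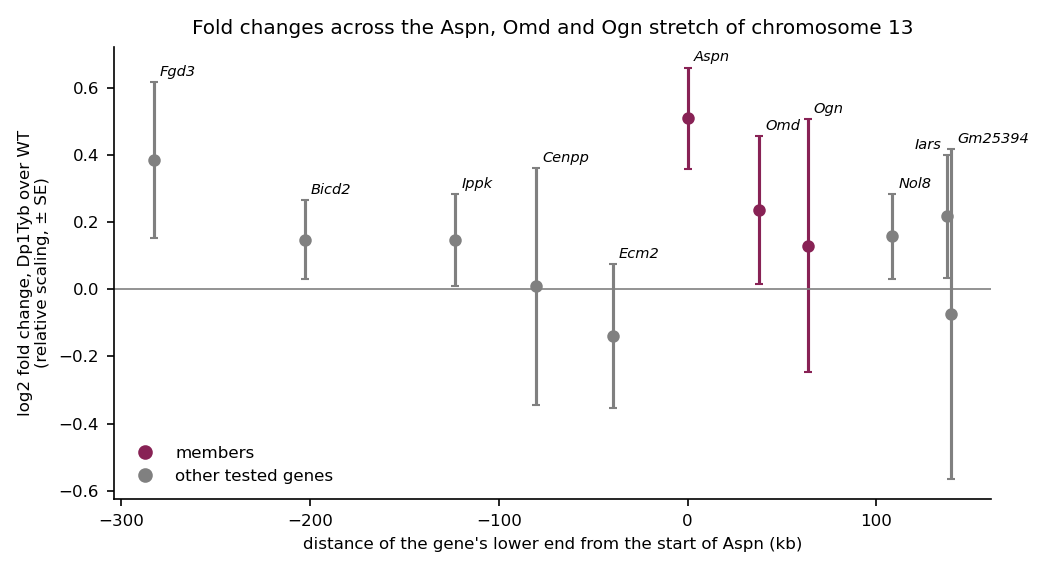
Log2 fold change (relative scaling, ± SE) of the 11 tested genes around Aspn, Omd and Ogn against the distance of their lower end from the start of Aspn in kb, with members in purple. Aspn lies at 0.51, Omd at 0.24 and Ogn at 0.13, and the other 8 genes between -0.14 and 0.38.

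Near Dcn, Lum and Kera, 1 other gene had counts, Epyc, which codes for the class III proteoglycan epiphycan of cartilage and whose log2 fold change was 0.16 (SE 0.29) with relative scaling. Near Fmod and Prelp, 12 others had counts and 7 were tested. Among them edgeR called 0 with either scaling, beside 0.0121% of all tested genes with spike-in and 0.0182% with relative scaling. Only 1, Gm38140 with 2 to 23 raw counts, had an unadjusted p under 0.05 with spike-in scaling, beside 1.17% of all tested genes. Opticin (Optc), the class III member next to Prelp, had 3 to 20 raw counts and was not tested. The best measured of the others were Btg2, an antiproliferative factor, at -0.10 (SE 0.28) and Zc3h11a at 0.00 (SE 0.10).

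The 5 genes whose pattern over the libraries was most like that of Aspn, genotype mean removed, were sought among 10953 genes with a mean of at least 100 counts. They were Chac2 (r = 0.99), Trmt2a (0.98), Abcc3 (0.96), Shq1 (0.95) and Lrrc49 (0.93), over 8 libraries. None lies on chromosome 13, and none lies in the duplicated stretch. Their log2 fold changes with relative scaling ran from -0.11 (SE 0.16) for Abcc3 to 0.25 (SE 0.20) for Chac2. With so many genes searched over 8 libraries such values of r are a description only.

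Other members of the wider family were sparse except for Tsku (tsukushi), a secreted inhibitor of growth factor signalling. Tsku was at 26.1 RPKM, with 1475 ± 136 normalised read counts for WT against 1857 ± 270 for Dp1Tyb (SD over 4 libraries), a log2 fold change of 0.33 (SE 0.13) with relative scaling. Its unadjusted edgeR p was 0.0249 with relative and 0.132 with spike-in scaling, and its adjusted p was 0.999. Podnl1, Epyc, Ecm2, Chad, Optc and Nyx were each under 1 RPKM, and 5 of the 7 genes were tested.

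The partners of the family were described from lists of collagens, of enzymes that build or cut the proteoglycans, and of TGF-beta and BMP signalling and other receptors. Over all of these and the wider family, 90 genes were tested, and edgeR and DESeq2 called 0 of the 90 with either scaling. At an unadjusted edgeR p under 0.05, 5 were higher in Dp1Tyb and 0 lower with relative scaling, and 4 higher and 0 lower with spike-in scaling. These shares stand beside 4.27% and 1.17% of all tested genes. Of all tested genes, edgeR called 0.0182% and DESeq2 0.316% with relative scaling, and each called 0.0121% with spike-in scaling.

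The 14 collagen genes listed as partners of the family were those of fibrillar collagens and collagen VI, with Col12a1 and Col14a1. Of these, 0 had an unadjusted p under 0.05. Their median log2 fold change was 0.09 with relative and 0.20 with spike-in scaling. Col1a1, the chain of type I collagen with 825 RPKM, had 0.17 (SE 0.32), Col3a1 had 0.12 (SE 0.26) and Col5a1 had 0.14 (SE 0.17) with relative scaling. Of the 21 enzymes of the linkage and of chondroitin or dermatan sulphate that were tested, 1 passed the unadjusted threshold with relative scaling, B4galt7, a galactosyltransferase of the linkage, at 0.34 (SE 0.11). Dse, the most abundant at 23.9 RPKM, which makes dermatan from chondroitin sulphate, had 0.06 (SE 0.12). Of 6 keratan sulphate enzymes 0 passed.

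Of 8 tested genes listed for the cleavage of propeptides and core proteins, Adamts5, an aggrecanase, passed the unadjusted threshold with both scalings. It was at 0.73 (SE 0.27) with relative and 0.78 (SE 0.32) with spike-in scaling. Of the 90 list genes 1, Adamts5, lies in the duplicated stretch of chromosome 16, of which Dp1Tyb cells carry an extra copy. The tested genes of that stretch had medians of 0.54 and 0.64 on the same log2 scales. Mmp2 and Mmp14, the most abundant at 151 and 130 RPKM, had -0.03 (SE 0.20) and -0.02 (SE 0.12) with relative scaling. Of 16 TGF-beta and BMP ligands and receptors, the ligand gene Tgfb3 passed with relative scaling. It had 2567, 3592, 3349 and 3014 normalised read counts in WT and 3518, 4656, 5044 and 4483 in Dp1Tyb, so that Dp1Tyb replicate 1 fell within the WT range. Its log2 fold change was 0.50 (SE 0.14) with relative scaling and 0.62 (SE 0.32) with spike-in scaling. With relative scaling its edgeR p was 0.00554 before and 0.903 after adjustment. The next genes of this list by RPKM, Tgfbr3, Tgfbr2 and Bmpr1a, had -0.30 (SE 0.16), 0.14 (SE 0.12) and -0.02 (SE 0.11) with relative scaling. The median of the list was 0.0035 with relative scaling, beside 0.0061 over all tested genes, and 0.15 with spike-in scaling, beside 0.11.

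Of the 10 TGF-beta responsive genes, Ccn2 passed the unadjusted threshold with both scalings, at 0.57 (SE 0.22) with relative scaling, and Acta2 with spike-in scaling, at 0.67 (SE 0.32). Of all lists this had the highest median, 0.24 with relative and 0.35 with spike-in scaling, and it shares Acta2 and Tagln with the smooth muscle or myofibroblast markers. Of 10 other receptors, the collagen receptor subunit Itga2 passed with spike-in scaling, at 0.81 (SE 0.40). Its normalised read count (relative scaling) was 292 in Dp1Tyb replicate 1 but 97.6, 87.4 and 121 in Dp1Tyb replicates 2 to 4. In WT it was 73.6 to 118. B4galt7, Adamts5, Ccn2 and Itga2 were named after their values had been seen. As 0 of the 90 genes passed the adjusted threshold, none of these is a call.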

How the data were processed

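Poly(A) RNA of 8 MEF libraries, 4 WT and 4 Dp1Tyb by their labels, was analysed. The authors trimmed reads with Trim Galore, aligned them to GRCm38 with the ERCC sequences by TopHat2 2.0.12, dropped multiply aligned reads and made counts per gene with htseq-count. The annotation release and strand option are not given in the sources used here. The deposited raw counts, with no normalisation, were used. The deposited normalised counts and the authors' DESeq2 1.6.3 table of fold changes and p-values were not used. The raw table held 63 spike-ins and 19493 endogenous genes, with a row sum of at least 15 counts. GENCODE M21 gave symbols, positions and exon lengths for 19318 IDs, and 175 had no match.

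Members and lists were chosen with earlier results of these data known. Genes were filtered with filterByExpr, and the genotypes were compared in edgeR 4.0.16 (R 4.3.3) with its two-sided quasi-likelihood test, with Benjamini-Hochberg adjustment over 16470 genes and a threshold of 0.05. Relative scaling took TMM factors of the endogenous genes, and spike-in scaling took median-of-ratios factors of the spike-ins. The study's methods also normalised to the spike-ins but do not state a formula. Normalised read counts are counts divided by these factors. Log2 values had a pseudocount of 0.5 counts. Alternatives were DESeq2 1.42.0, other factors, a minimum of 10 counts in each library, dropping the filter, the replicate number as a block, and leaving out each library. The fits were first tested on simulated counts with planted log2 changes of 2 or 4, of which 89 to 100% were recovered. False calls were 2 with spike-in and 13 with relative scaling. Smaller changes, such as those of the members, were not simulated, so the recovery does not extend to them.

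The genes named were the members, genes with counts within 250 kb of a member cluster, the wider family, up to 4 genes per list with the highest RPKM, the 5 genes most like Aspn, cell type markers, and Xist and Ddx3y. B4galt7, Adamts5, Ccn2 and Itga2 fall outside this rule and were named after their values had been seen. Libraries of the same genotype differed by more than counting error (chi-square per degree of freedom 10.4 to 95.7).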

Additional observations from a re-analysis of the deposited data

Results flagged for a closer look

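Fmod in Dp1Tyb replicate 1 lay far below the other 3 Dp1Tyb cultures: on the log2 scale with relative scaling the gap to the next culture was 0.893 of the whole range of the genotype, above Dixon's critical value for 4 samples. This culture had 69 raw counts of Fmod against 366 to 539 in the other 3. The member values of each genotype made 18 such groups, and chance alone passes the critical value in about 1 of 20.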

How the results depend on the processing

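The log2 fold change of Aspn stayed positive under every alternative, from 0.53 to 0.72 with spike-in scaling and from 0.41 to 0.60 with relative scaling. Bgn and Omd stayed positive too. Over all 9 members, 252 alternative fold changes gave 26 changes of sign, of which 24 came from leaving out a library and 2, both of Podn, from the replicate block (0.12 with spike-in and 0.02 with relative scaling). No other choice of factors, test or filter changed a sign. No member was called by an adjusted p under any alternative.

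With spike-in scaling 2 genes of all tested were called, 0 by edgeR with at least 10 counts in every library (156 at an unadjusted p under 0.05), 9 with the replicate block, and 2 to 8 when leaving out a library (4 without Dp1Tyb replicate 1, 8 without Dp1Tyb replicate 2, 6 without Dp1Tyb replicate 4 and 6 without WT replicate 1). With relative scaling 3 were called, 52 by DESeq2, 0 by edgeR with at least 10 counts in every library (622 unadjusted), 7 with the replicate block, and 1 when leaving out any library. Under the replicate block r was -0.092 for Aspn and Ogn, -0.19 for Aspn and Omd, 0.89 for Ogn and Omd, 0.76 for Dcn and Lum and 0.97 for Fmod and Prelp. The numbers were not taken as pairs: deviations of same-numbered libraries correlated at 0.37, 0.52, 0.03 and 0.33, and WT replicate 3 correlated best with Dp1Tyb replicate 4. With the block the genes at an unadjusted p under 0.05 went from 192 to 499 with spike-in and from 703 to 1601 with relative scaling. The RPKM of Dcn (225) and Bgn (1166) rose with the length of the longest coding transcript. The depth limits Kera (3 to 20 counts) and Omd (68 to 130 counts), and the number of libraries, 4 a genotype, limits the precision of the others.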
